A study of Mus musculus with 23 samples.

Results

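The difference between NZO/HlLtJ and C57BL/6J mice in how testis gene expression varies with diet was measured in 16 of the 23 libraries of the series. It is the change from 10% to 44% fat in NZO/HlLtJ minus the same change in C57BL/6J, and the libraries were chosen by the strain and diet in their titles. Each of the 4 groups (NZO/HlLtJ on 10% fat, NZO/HlLtJ on 44% fat, C57BL/6J on 10% fat and C57BL/6J on 44% fat) holds 4 libraries of polyA RNA from testis of male mice of wild-type genotype with no other treatment. Both diets carry fiber per the labels. The 44% diet is the one described as rich in fat and sugar, so fat and sugar cannot be told apart. Feeding began at 6 weeks of age and tissue was taken at 16 weeks. CAST/EiJ, the third strain of the series, is outside the difference. Its libraries enter the gene filter, the scaling and the shared estimate of the spread, and its diet effects are given for some genes. The title of the series names interaction of genotype and diet in mouse models of type 2 diabetes as its subject.

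NZO/HlLtJ is an inbred strain in which many loci together cause obesity and, in males, high blood glucose, and C57BL/6J is the strain of the mouse reference genome and gains weight on diets rich in fat. The testis holds germ cells at all stages of sperm formation inside tubules lined by Sertoli cells, and between the tubules lie Leydig cells that make testosterone, macrophages, vessels and connective tissue. Spermatids supply a large share of testis RNA. A value in whole testis is therefore an average over these cells, and fewer cells of a type cannot be told apart from less RNA per cell. A strain-by-diet difference of 0 for a gene means that the diet changes its level by the same factor in both strains, whatever its level in either.

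Library totals ran from 21.9 to 43.4 M estimated counts. The lowest belonged to C57BL/6J 10% fat replicate 4. This library, NZO/HlLtJ 10% fat replicate 4 and NZO/HlLtJ 44% fat replicate 3 stood apart from the rest in earlier analysis of these data, and received weights of 0.661, 0.463 and 0.766 from limma's library weighting. NZO/HlLtJ 10% fat replicate 3 had a weight of 0.654. The ID numbers in the titles fall into 3 runs that no label calls batches. Both C57BL/6J groups have 1, 1 and 2 libraries in the 3 runs. NZO/HlLtJ on 10% fat has 2 libraries in the first run and 2 in the third, and NZO/HlLtJ on 44% fat has 2 in the first and 2 in the second. Outside the first run, run and diet cannot be told apart within NZO/HlLtJ. The first run alone therefore holds both diets of NZO/HlLtJ, with 2 libraries per diet against 1 per diet in C57BL/6J, and its values are given below for each list median whose sign it turned and for some genes. The labels list each library as its own sample, no pair of libraries in a group agreed within counting error, and p-values measure the spread between these samples.

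No gene showed a diet effect that differed between the strains past the threshold. Of 22873 genes tested, 0 (0%) had an adjusted p below 0.05 by edgeR's quasi-likelihood test with Benjamini-Hochberg adjustment. Without adjustment, 926 genes (4.05%) had p below 0.05, of which 535 (2.34%) had a higher diet effect in NZO/HlLtJ and 391 (1.71%) a lower one. The smallest adjusted p was 0.107, shared by Pakap and 4930408K08Rik, and only these and ENSMUSG00000108533 (adjusted p = 0.112) were under 0.2 by the same test. DESeq2's Wald test called 2 genes, Pakap and 4930408K08Rik, and edgeR on the 16 libraries alone called 1, Pakap. The other planned settings that kept all 16 libraries called 0, and with p below 0.05 before adjustment DESeq2 had 1046 genes, limma with library weights 1259 and limma on the deposited log2 values 1006.

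4930408K08Rik, chosen after its values were seen, is a gene with a clone name only. In NZO/HlLtJ its level was 0.734, 0.963, 1.01 and 0.602 CPM (counts per 1 M of the scaled library total) on 10% fat and 1.49, 1.26, 1.36 and 1.34 CPM on 44% fat. Levels in C57BL/6J were 1.12, 0.991, 1.16 and 1.102 CPM on 10% fat and 0.822, 0.790, 0.383 and 0.638 CPM on 44% fat. The diet groups did not overlap in either strain and went opposite ways, with a log2 difference of 1.44 (SE 0.26).

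The diet effect within each strain was also small in number of genes. On 44% fat, 1 gene (0.00437%) rose in NZO/HlLtJ, the amino acid transporter gene Slc38a2, and 2 genes (0.00874%) rose in C57BL/6J, Fam205a2 and Fam205a3. The last 2 carry the same values. Leaving out each of the 16 libraries in turn ended the Slc38a2 call in 8 cases and the Fam205a2 and Fam205a3 calls in 6. None of these 3 passed the test of the difference between strains, so a diet effect particular to either strain was not shown for them. Without adjustment, 1555 genes (6.80%) differed between diets in NZO/HlLtJ and 670 (2.93%) in C57BL/6J. The lists shared 52 genes, which is 3.34% of the NZO/HlLtJ list and 7.76% of the C57BL/6J list, and 26 of them went the same way in both strains and 26 the opposite way. Across 17239 genes with a mean of at least 1 CPM, the log2 diet effects of the 2 strains had a Pearson r of 0.0196 and a Spearman rho of 0.0402, and 52.1% had the same sign. These are descriptions across genes, which are not independent replicates and share the libraries' scaling.

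**Figure D1:**
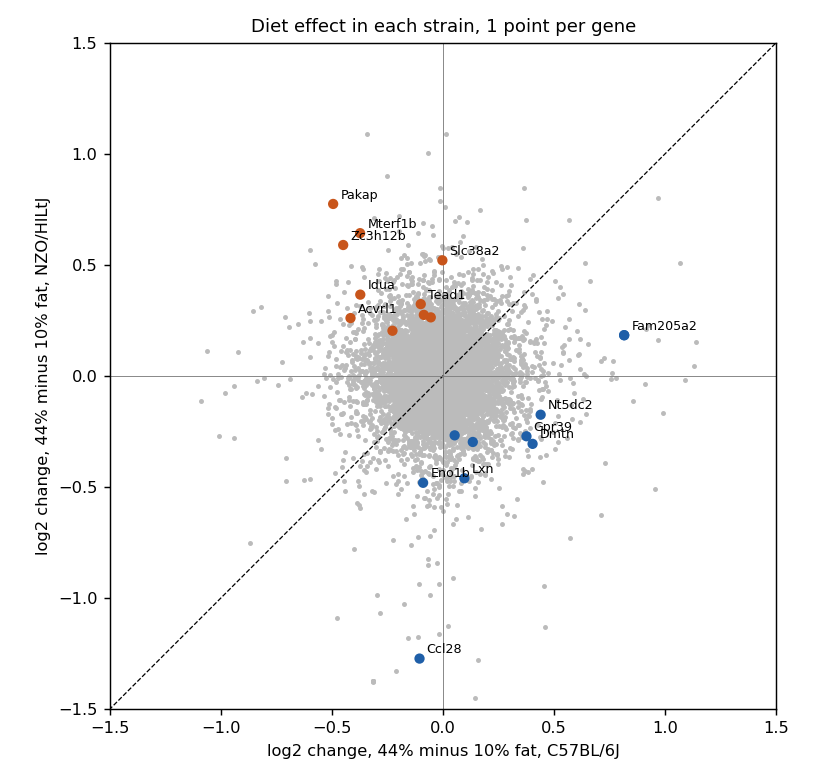
Each point is a gene with a mean of at least 1 CPM, with its log2 change from 10% to 44% fat in C57BL/6J on the horizontal axis and in NZO/HlLtJ on the vertical axis. The dashed line marks equal changes, orange and blue points are the 20 leading genes with a higher or lower diet effect in NZO/HlLtJ, 26 genes lie outside the range drawn, and the cloud has no slope along the dashed line (Pearson r 0.0196).

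In the fit without a term for the runs of ID numbers, the data bounded the size of a strain difference for most genes. Its intervals do not cover a difference between runs, which outside the first run cannot be told apart from diet within NZO/HlLtJ. Over the 17239 genes with at least 1 CPM, the 95% interval of the difference reached a median of 0.25 on the log2 scale to either side of the estimate. For 12983 of them (75.3%) the interval lay wholly within a 1.5-fold difference, and for 16277 (94.4%) within a 2-fold difference. Genes between 10 and 100 CPM were bounded within 1.5-fold in 97.7% of cases, genes between 1 and 10 CPM in 43.0%, and genes under 1 CPM in 0.107%. At the low end, differences of 1.5-fold were mostly not detectable at this depth and number of libraries.

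The 20 genes described next are the 10 with the smallest unadjusted p in each direction among named genes with at least 1 CPM. Since they were ranked on the difference itself, their separation is a description. The diet groups did not overlap in NZO/HlLtJ for 12 of the 20, against 818 of all genes tested (3.58%), and in C57BL/6J for 6 of the 20, against 479 of all (2.09%). Fam205a2 and Fam205a3, both among the 6, carry the same values, so counts over the 20 hold 1 measurement under both names. In 16 of the 20 the diet effect had opposite signs in the strains, against 48.1% of all genes tested. Of the 926 genes with an unadjusted p below 0.05, 869 (93.8%) had opposite signs, so the count is not particular to these 20. Over all genes tested, 8 (0.035%) had diet groups that did not overlap in either strain and that went opposite ways, and 3 of these were among the 20, namely Pakap, Zc3h12b and Idua. The plot of single libraries gives 12 genes, these 3 among them.

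**Figure D2:**
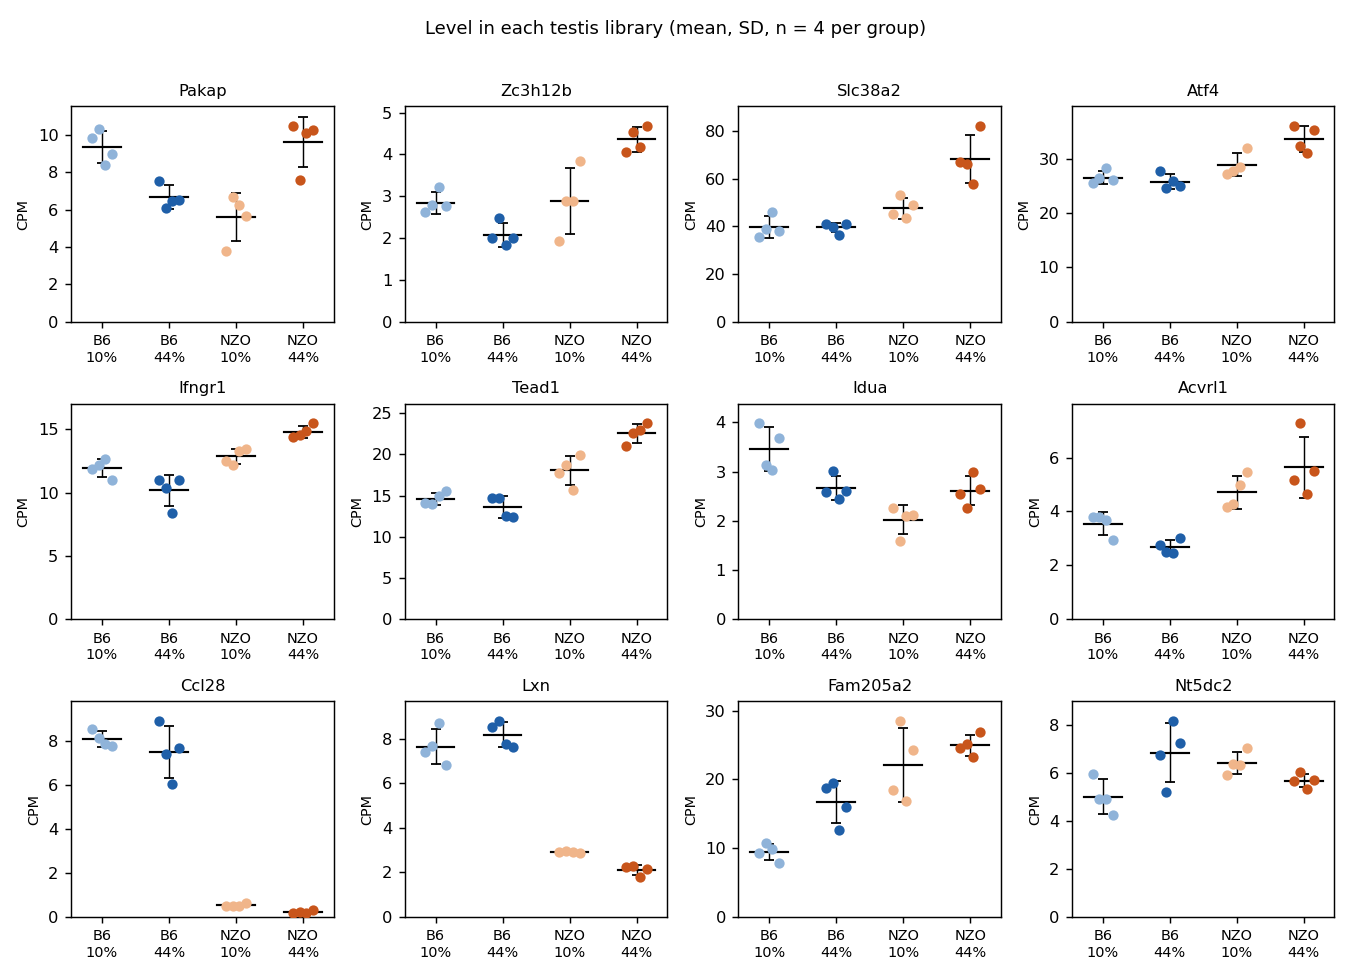
Level in CPM (vertical axis, from 0) of 12 genes in each of 16 testis libraries, with points for libraries, a bar for the mean and whiskers for the SD (n = 4 per group). B6 stands for C57BL/6J and NZO for NZO/HlLtJ. Pakap and Idua go opposite ways in the strains, Slc38a2 is high in the 4 NZO libraries on 44% fat, and Ccl28 and Lxn are low in NZO on both diets.

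Pakap, at chr4:57568179-57896984 on the plus strand of GRCm38, is the joined gene of Palm2 and Akap2, and Akap2 encodes an anchoring protein for protein kinase A. In NZO/HlLtJ its level was 3.81, 6.69, 6.24 and 5.68 CPM on 10% fat and 10.5, 7.61, 10.1 and 10.3 CPM on 44% fat. In C57BL/6J it was 9.83, 10.3, 8.38 and 9.003 CPM on 10% fat and 7.56, 6.08, 6.49 and 6.53 CPM on 44% fat. Every NZO/HlLtJ library on 44% fat was above every one on 10% fat, and in C57BL/6J the order was the reverse. The log2 difference of diet effects was 1.27 (SE 0.23, 95% interval 0.79 to 1.75), from 0.77 in NZO/HlLtJ and -0.50 in C57BL/6J, with an adjusted p of 0.107 by edgeR's test. By DESeq2's Wald test the adjusted p was 0.00201, and by edgeR on the 16 libraries alone 0.0287. On the authors' deposited log2 values, a scale that compresses low levels, it was 0.64, and in the first run of ID numbers 1.16.

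Pakap overlaps both genes it joins, and how reads were divided among the 3, or which transcripts were used, was not tested. In GENCODE M21, 8304 of the 8456 exonic bases of Pakap (98.2%) also belong to Palm2 or Akap2. The log2 difference of diet effects was -0.55 (SE 0.29) for Palm2 and -0.29 (SE 0.14) for Akap2, of the opposite sign to that of Pakap. With the 3 genes counted as 1, a setting added after the data were seen, the level was 47.9 ± 2.49 CPM on 10% fat and 47.6 ± 2.67 CPM on 44% fat in NZO/HlLtJ, and 42.7 ± 3.29 and 43.7 ± 2.21 CPM in C57BL/6J (SD, n = 4 per group). The difference of diet effects was then -0.04 (SE 0.09, 95% interval -0.23 to 0.14). The interval for the 3 genes together reached no further than 0.23 from 0, and the value of Pakap alone is uncertain.

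Slc38a2 encodes SNAT2, a sodium-coupled transporter of neutral amino acids that is a known target of the transcription factor ATF4 when amino acids are short. It lies at chr15:96687394-96699698 on the minus strand. In NZO/HlLtJ it stood at 45.1, 53.2, 43.3 and 48.8 CPM on 10% fat and rose to 66.8, 66.1, 57.9 and 82.1 CPM on 44% fat. C57BL/6J libraries stood at 35.4, 39.0, 46.1 and 38.1 CPM on 10% fat and at 40.9, 39.8, 36.6 and 40.9 CPM on 44% fat. The NZO/HlLtJ libraries on 44% fat were the highest of all 16, and the C57BL/6J diet groups overlapped. The log2 change in NZO/HlLtJ was 0.52 (SE 0.09, adjusted p = 0.0363 by edgeR's test) and in C57BL/6J -0.00 (SE 0.09). The difference was 0.52 (SE 0.12, 95% interval 0.27 to 0.78), with an adjusted p of 0.814 by the same test. Over the other settings, the lowest adjusted p was 0.167, without NZO/HlLtJ 44% fat replicate 3. The first run of ID numbers alone gave a difference of 0.22, and the NZO/HlLtJ rise was not called in that run, with the run as a term or on the 16 libraries alone.

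Slc38a2 is 1 of 18 genes of the amino acid and integrated stress response list, in which a shortage of amino acids or other stress raises translation of ATF4 and ATF4 raises genes of amino acid supply. Of the 18, 4 had an unadjusted p below 0.05, against 4.05% of all genes tested, and all 4 had a higher diet effect in NZO/HlLtJ. The median difference of the list was 0.01 against -0.00 over all genes. The other 3 were chosen after their values were seen. Atf4 itself stood at 27.2, 27.8, 28.5 and 32.0 CPM on 10% fat and 36.0, 32.4, 31.0 and 35.3 CPM on 44% fat in NZO/HlLtJ. C57BL/6J libraries had 25.5, 26.4, 28.2 and 26.1 CPM on 10% fat and 27.7, 24.6, 25.9 and 25.0 CPM on 44% fat. Only 1 library on 10% fat overlapped the 44% group in NZO/HlLtJ, and the C57BL/6J groups overlapped, with a difference of diet effects of 0.26 (SE 0.09, unadjusted p = 0.00475). The cystine transporter gene Slc7a11 had 0.48 (SE 0.23) and the serine synthesis gene Psat1 0.23 (SE 0.11).

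Values of other known ATF4 targets had both signs. Asns, which makes asparagine, had a difference of -0.11, Chac1 of -0.10, Ddit3 of -0.00 and Mthfd2 of -0.02, and none had an unadjusted p below 0.05. Trib3 had 0.82 and Cebpb -0.91, also without an unadjusted p below 0.05. Without the 3 libraries that stand apart, 16 of the 18 genes had a positive difference in place of 11, with a median of 0.14, and 3 in place of 4 had an unadjusted p below 0.05. Over all genes tested, 1040 of 22873 had such a p in that setting.

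Zc3h12b, an X-linked gene of the family of zinc finger ribonucleases that cut messenger RNA, also went opposite ways in the strains. In NZO/HlLtJ it stood at 1.92, 2.89, 2.89 and 3.85 CPM on 10% fat and 4.05, 4.53, 4.17 and 4.68 CPM on 44% fat. Its level in C57BL/6J was 2.62, 2.79, 3.21 and 2.76 CPM on 10% fat and 2.00, 2.49, 1.83 and 2.00 CPM on 44% fat. The diet groups did not overlap in either strain, and the difference was 1.04 (SE 0.22) with an adjusted p of 0.470 by edgeR's test. It was 1.22 in the first run of ID numbers.

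Idua, which encodes the lysosomal enzyme alpha-L-iduronidase, was the third such gene. In NZO/HlLtJ it was at 2.26, 1.59, 2.10 and 2.12 CPM on 10% fat and 2.54, 2.27, 2.99 and 2.65 CPM on 44% fat. The groups met at 2.26 and 2.27 CPM without overlap. C57BL/6J libraries were at 3.98, 3.13, 3.03 and 3.67 CPM on 10% fat and 2.58, 3.01, 2.45 and 2.61 CPM on 44% fat. The difference of diet effects was 0.74 (SE 0.19, 95% interval 0.34 to 1.13).

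The other 6 genes of the higher group had diet effects of 0.20 to 0.64 in NZO/HlLtJ. Tead1, a transcription factor of the Hippo pathway, was at 17.8, 18.7, 15.7 and 19.96 CPM on 10% fat and 21.0, 22.5, 22.9 and 23.7 CPM on 44% fat in NZO/HlLtJ, against 14.0, 13.9, 14.9 and 15.5 CPM and 14.7, 14.7, 12.5 and 12.4 CPM in C57BL/6J. The NZO/HlLtJ diet groups did not overlap and the C57BL/6J groups did, with a difference of 0.42 (SE 0.11). Ifngr1, the ligand-binding chain of the interferon gamma receptor, was at 12.2 to 13.4 CPM on 10% fat and 14.4 to 15.5 CPM on 44% fat in NZO/HlLtJ, and at 11.0 to 12.7 and 8.41 to 11.0 CPM in C57BL/6J. The NZO/HlLtJ groups of Ifngr1 did not overlap, the C57BL/6J groups did, and the difference was 0.43 (SE 0.11). Acvrl1, a receptor of the TGF-beta family known from blood vessels, was at 4.15 to 5.47 CPM and 4.65 to 7.26 CPM in NZO/HlLtJ, and at 2.94 to 3.79 and 2.45 to 3.02 CPM in C57BL/6J, with a difference of 0.68 (SE 0.20). The diet groups of Acvrl1 overlapped in both strains. Its single library low in C57BL/6J on 10% fat was replicate 4, and without the 3 libraries that stand apart the difference was 0.91, and in the first run of ID numbers it was 1.02.

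Ptpn13, a tyrosine phosphatase gene, was at 34.9 to 41.6 CPM on 10% fat and 43.5 to 49.4 CPM on 44% fat in NZO/HlLtJ, with a difference of 0.32 (SE 0.08). Kif21a, a kinesin motor gene, was at 41.4 to 51.3 CPM and 54.5 to 62.8 CPM there, with a difference of 0.36 (SE 0.10). For both, the NZO/HlLtJ groups did not overlap. The first run of ID numbers gave smaller differences, of 0.04 for Ptpn13, 0.10 for Kif21a and 0.18 for Tead1. Mterf1b, of the mitochondrial transcription terminator family, had a difference of 1.02 (SE 0.26) at 1.24 to 2.79 CPM. Counted together with its near copy Mterf1a the difference was 0.15 (SE 0.16, 95% interval -0.18 to 0.49), again a setting added after the data were seen.

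Ccl28, a chemokine gene of mucosal tissues, had the largest difference of the 10 leading genes with a lower diet effect in NZO/HlLtJ. In NZO/HlLtJ it was at 0.508, 0.482, 0.470 and 0.626 CPM on 10% fat and 0.189, 0.210, 0.148 and 0.306 CPM on 44% fat. C57BL/6J libraries were at 8.58, 8.17, 7.86 and 7.81 CPM on 10% fat and 8.93, 7.43, 6.05 and 7.72 CPM on 44% fat. The NZO/HlLtJ groups did not overlap but lay far below every C57BL/6J library, and the C57BL/6J groups overlapped. The difference was -1.17 (SE 0.31, 95% interval -1.81 to -0.52), and -0.10 on the authors' deposited log2 values. Lxn, which encodes the carboxypeptidase inhibitor latexin, was likewise lower in NZO/HlLtJ, at 2.91, 2.95, 2.93 and 2.87 CPM on 10% fat and 2.24, 2.27, 1.78 and 2.15 CPM on 44% fat. Its C57BL/6J libraries lay at 6.80 to 8.71 CPM on 10% fat and 7.63 to 8.80 CPM on 44% fat. Its difference was -0.56 (SE 0.16).

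Fam205a2 and Fam205a3, 2 of the Fam205a copies on chromosome 4 (chr4:42522580-42528175 and chr4:42318334-42323929), carry the same values, and their longest transcripts in GENCODE M21 are identical over 3927 bases. Each stood at 9.31, 10.7, 9.85 and 7.90 CPM on 10% fat in C57BL/6J and rose to 18.8, 19.5, 12.7 and 15.96 CPM on 44% fat, a log2 change of 0.82 (SE 0.14, adjusted p = 0.0283 by edgeR's test). In NZO/HlLtJ each stood at 18.4, 28.5, 16.9 and 24.3 CPM on 10% fat and 24.6, 25.2, 23.2 and 26.9 CPM on 44% fat. The C57BL/6J groups did not overlap, the NZO/HlLtJ groups did, and the difference was -0.63 (SE 0.19, 95% interval -1.02 to -0.25). The same sequence lies within the longest transcript of Fam205a4, and Fam205a1 is 98.85% identical. Counted as 1 gene, a setting added after the data were seen, the 4 copies were at 195 ± 8.06 and 207 ± 17.2 CPM in C57BL/6J and at 230.2 ± 5.23 and 224 ± 11.5 CPM in NZO/HlLtJ (SD, n = 4 per group, 10% then 44% fat). The difference was then -0.12 (SE 0.08, 95% interval -0.28 to 0.03).

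The other 6 genes with a lower diet effect in NZO/HlLtJ were as follows. Nt5dc2, of a family with a nucleotidase domain, had -0.61 (SE 0.18), with 4.23 to 5.96 CPM on 10% fat and 5.20 to 8.17 CPM on 44% fat in C57BL/6J. Gpr39, a zinc-sensing receptor gene, had -0.65 (SE 0.19), with 6.403 to 8.11 and 5.18 to 6.70 CPM in NZO/HlLtJ and 2.72 to 3.55 and 3.39 to 5.37 CPM in C57BL/6J. Dmtn, which encodes the actin-bundling protein dematin, had -0.71 (SE 0.23) at 1.33 to 3.01 CPM. In all 3 the diet groups of both strains overlapped.

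Klhl32, a kelch-like gene, had -0.43 (SE 0.14), and its C57BL/6J groups did not overlap, at 8.17 to 9.39 CPM on 10% fat and 9.54 to 10.0 CPM on 44% fat. Ppp1r2-ps6, a pseudogene of a protein phosphatase inhibitor, had -0.32 (SE 0.10), at 18.1 to 22.5 and 13.9 to 19.5 CPM in NZO/HlLtJ, with overlapping groups. Eno1b, a retrogene copy of the glycolytic enzyme gene Eno1, had -0.39 (SE 0.12), at 4.23 to 4.59 and 2.75 to 3.38 CPM in NZO/HlLtJ, with groups that did not overlap. Eno1b is 94.6% identical to Eno1, and the 2 counted as 1 gene had a difference of -0.04 (SE 0.08, 95% interval -0.21 to 0.12). For the first run of ID numbers alone the difference was -0.25 for Nt5dc2, -0.42 for Gpr39, -0.17 for Klhl32 and -0.23 for Eno1b. In the other genes of the lower group that run gave differences larger in size than all libraries did. They were -1.35 for Ccl28, -0.58 for Lxn, -0.93 for Fam205a2 and Fam205a3, -0.77 for Dmtn and -0.36 for Ppp1r2-ps6.

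**Figure D3:**
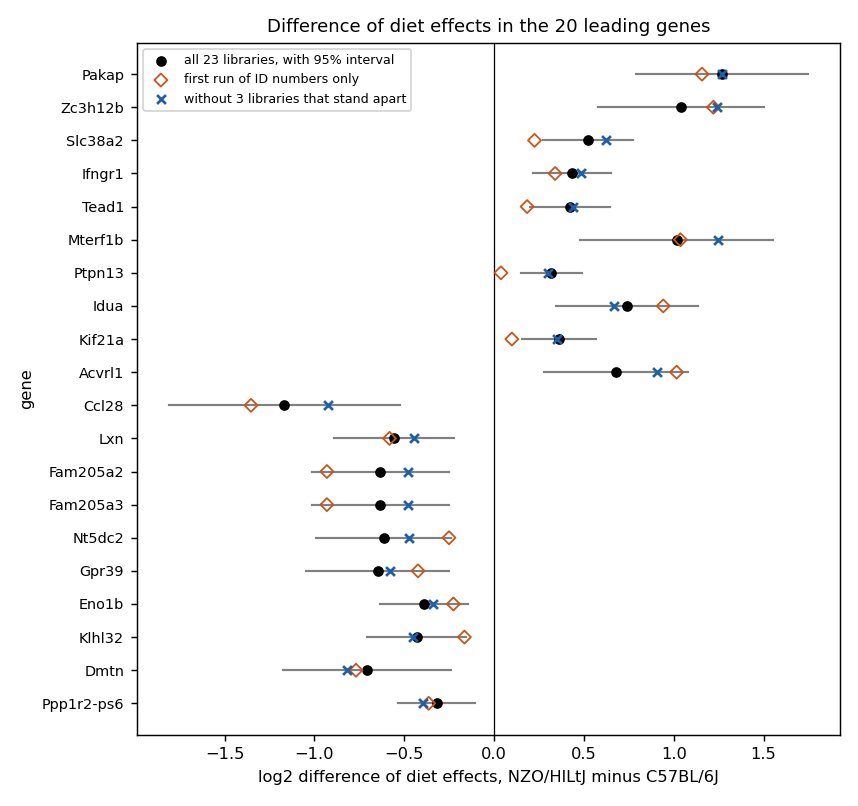
Log2 difference of diet effects (horizontal axis) for the 20 leading genes, with black points and grey lines for all libraries and their 95% interval, orange diamonds for the first run of ID numbers, and blue crosses for the fit without 3 libraries that stand apart. All points of a gene lie on the same side of 0, and for Ptpn13, Kif21a, Tead1 and Slc38a2 the diamond lies nearer to 0 than the point and the cross.

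The 20 genes kept their sign in all 27 planned settings, 540 values in all, but a sign that holds in subsets of the same libraries is no independent evidence. The diet effects of CAST/EiJ for these genes ran from -0.29 to 0.62 on the log2 scale and had the sign of the NZO/HlLtJ effect in 7 of the 20. For Pakap the CAST/EiJ effect was 0.37 (SE 0.17), for Slc38a2 -0.07 (SE 0.09), for Ccl28 -0.29 (SE 0.21) and for Fam205a2 0.18 (SE 0.15).

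Gene lists for testis cell types, pathways, neighbouring tissues and sample handling were then described. Of the 593 genes tested on 35 lists, none had an adjusted p below 0.05, and 33 (5.56%) had an unadjusted p below 0.05, against 4.05% of all genes tested. Of the 33, 24 had a higher and 9 a lower diet effect in NZO/HlLtJ. The median difference over all genes was -0.00, with 11420 of 22873 positive and 11447 negative.

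In the first run of ID numbers, with 1 C57BL/6J library per diet, the medians of 14 of the 35 lists had the other sign. They were 0.07 for myoid, 0.14 for endothelial and -0.12 for lymphocyte markers, -0.16 for meiotic genes, 0.01 for round spermatids and -0.09 for insulin signalling. Antioxidant genes had 0.15, nuclear and mitochondrial genes of oxidative phosphorylation 0.19 and 0.03, clock genes 0.05, and immediate early genes 0.09. Ribosomal protein genes had 0.24, red blood cell genes 0.10 and epididymal genes -0.37. With the run as a term, which keeps the libraries of all runs, only the clock median had the other sign, at 0.0035. That fit gave -0.08 for round spermatids, 0.08 for insulin signalling and -0.02 for nuclear oxidative phosphorylation. It gave -0.05 for ribosomal protein, -0.10 for red blood cell and 0.12 for epididymal genes.

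**Figure D4:**
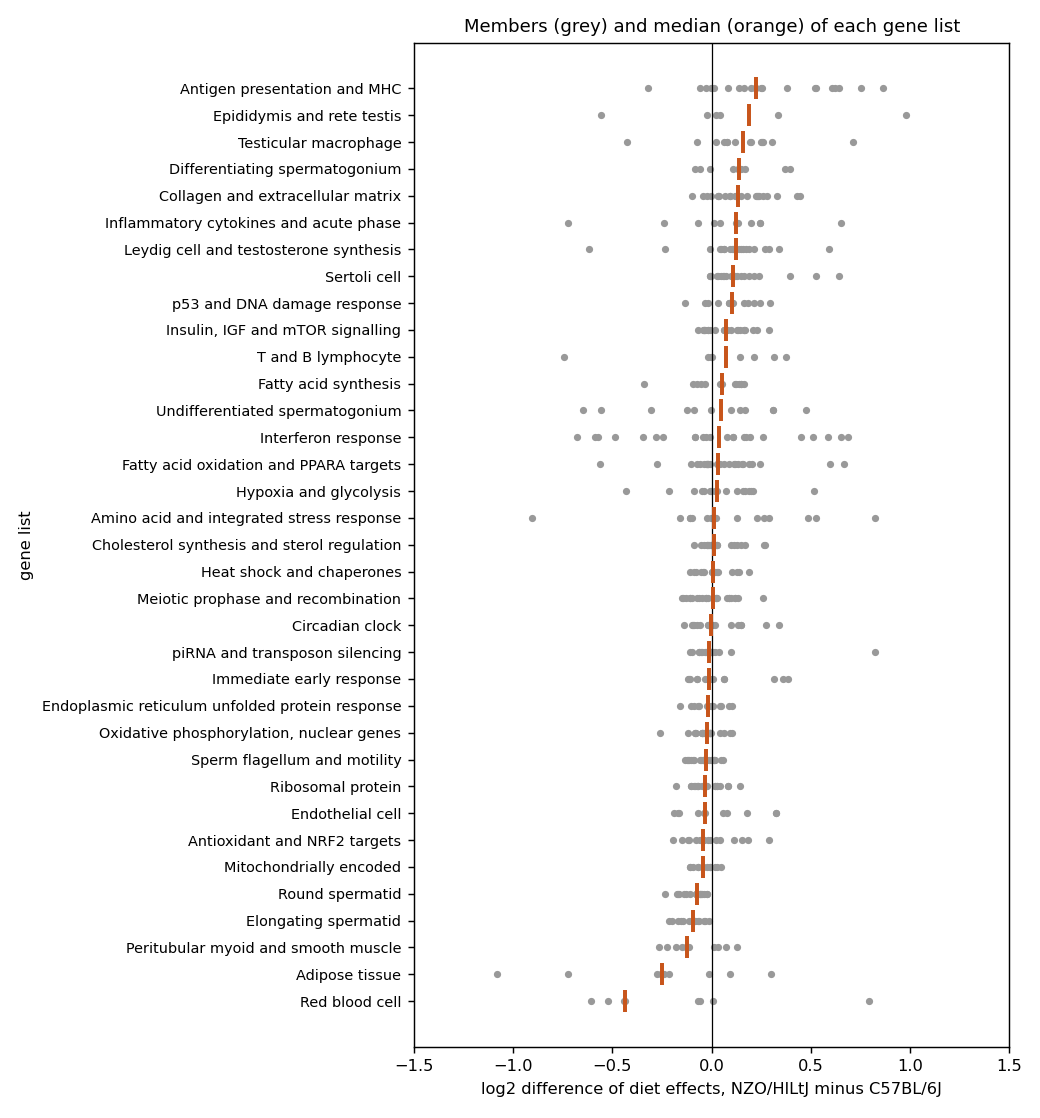
Log2 difference of diet effects (horizontal axis) of each member (grey points) of the 35 gene lists (vertical axis), with the median of each list in orange. The 5 members beyond 1.5 are not drawn. The medians run from -0.44 for red blood cell genes to 0.22 for antigen presentation, and all spermatid members lie at or left of 0.

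Transcripts of spermatids, the haploid cells that become sperm, had slightly lower diet effects in NZO/HlLtJ. All 18 round spermatid markers had a negative difference, with a median of -0.08, and so did all 18 elongating spermatid markers, with a median of -0.10. The members rise and fall together with the share of these cells and are not independent. Of the 36, only Catsper3, a subunit of the sperm calcium channel, had an unadjusted p below 0.05, against 4.05% of all genes tested. It was at 51.8, 52.9, 57.5 and 53.1 CPM on 10% fat and 50.7, 45.5, 45.0 and 46.6 CPM on 44% fat in NZO/HlLtJ, and at 57.8 to 69.2 and 60.6 to 70.9 CPM in C57BL/6J. The NZO/HlLtJ groups did not overlap, and the difference was -0.23 (SE 0.09), but it was 0.07 in the first run of ID numbers.

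Among elongating spermatid markers, Car2, a carbonic anhydrase gene, had -0.22 (SE 0.11), the protamine genes Prm1, Prm2 and Prm3, which pack sperm DNA, -0.09, -0.17 and -0.20, and the transition protein genes Tnp1 and Tnp2 -0.08 and -0.06. Their summed level was 20566 ± 2000 and 19717 ± 1068 CPM in NZO/HlLtJ and 23497 ± 1270 and 24188 ± 319 CPM in C57BL/6J (SD, n = 4 per group, 10% then 44% fat). The diet groups overlapped in both strains, and the strains did not, apart from 1 NZO/HlLtJ library on 10% fat. Without the 3 libraries that stand apart, 4 of the 18 elongating markers had an unadjusted p below 0.05, and the median was -0.10. Over all genes tested, 1040 of 22873 had such a p in that setting. The first run of ID numbers had a median of -0.03 for elongating and 0.01 for round spermatid markers. Of 24 sperm flagellum genes, 17 had a negative difference, with a median of -0.03. Cfap206, an axoneme gene, had -0.12 (SE 0.06).

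Markers of earlier germ cells were nearer to 0 or went the other way. Of 10 markers of differentiating spermatogonia 7 had a positive difference (median 0.14), with Stra8, which is induced by retinoic acid before meiosis, at 0.37 (SE 0.15) and 0.07 in the first run of ID numbers. Of 12 markers of undifferentiated spermatogonia 6 were positive (median 0.05), with the stem cell receptor gene Ret at 0.47 (SE 0.22). Of 25 genes of meiotic prophase 13 were positive (median 0.01). Of 19 piRNA genes 5 were positive (median -0.01), with Piwil4 at 0.82 (SE 0.34) and 0.329 to 1.65 CPM.

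**Figure D5:**
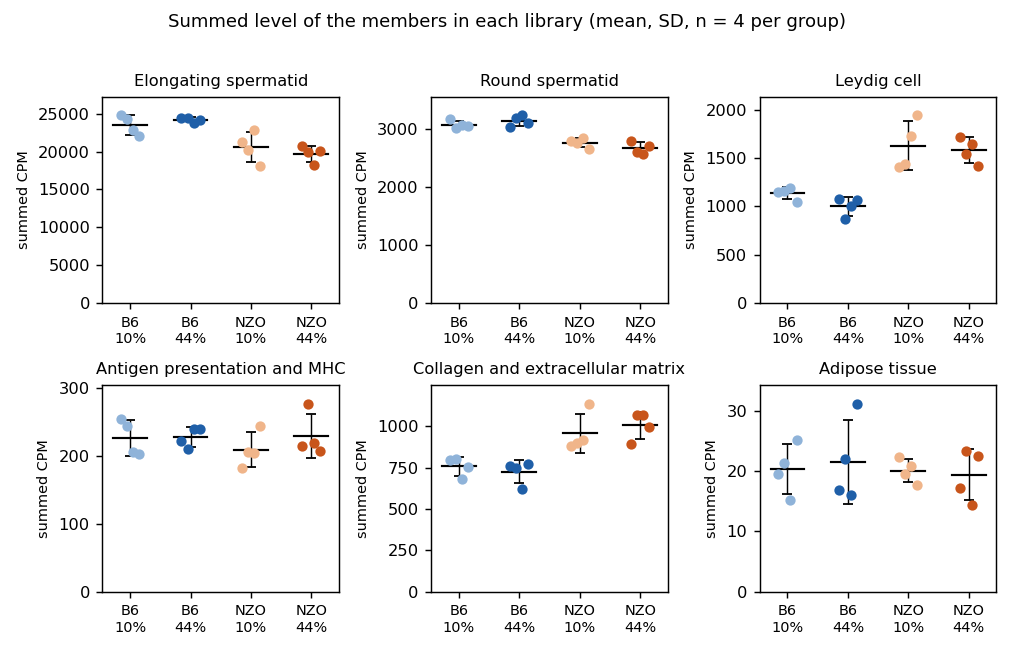
Summed level in CPM (vertical axis, from 0) of the members of 6 gene lists in each of 16 libraries, with points for libraries, a bar for the mean and whiskers for the SD (n = 4 per group). B6 stands for C57BL/6J and NZO for NZO/HlLtJ. The 2 diets overlap in both strains in every list, and the distances between strains exceed those between diets for spermatid, Leydig and collagen genes.

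Lists of somatic cells differed in sign. Of 20 Leydig cell genes 17 had a positive difference, with a median of 0.12, of 22 Sertoli cell genes 19, with a median of 0.11, and of 14 macrophage genes 12, with a median of 0.16. In each of these lists the median diet effect was negative in C57BL/6J (-0.11, -0.04 and -0.16) and positive in NZO/HlLtJ (0.01, 0.08 and 0.04). The mean summed Leydig level was nonetheless lower on 44% fat in both strains, with overlapping diet groups. It was 1630 ± 253 and 1583 ± 134 CPM in NZO/HlLtJ and 1137 ± 62.4 and 1003 ± 97.4 CPM in C57BL/6J (SD, n = 4 per group, 10% then 44% fat). Of 11 peritubular myoid genes 4 were positive, with a median of -0.12, and of 11 endothelial genes 5, with a median of -0.04. The Sertoli median was 0.02 in the first run of ID numbers. Spermatid and somatic levels are shares of 1 total, and their part in each other was not tested.

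Among Leydig cell genes those of hormone synthesis chosen as checks had intervals that included 0. Insl3, the peptide hormone of Leydig cells, had 0.21 (95% interval -0.23 to 0.65), Cyp17a1, which makes androgen precursors, 0.16 (-0.23 to 0.55) and 0.40 in the first run of ID numbers, Star, which moves cholesterol into mitochondria, -0.24 (-0.99 to 0.52), and Hsd3b1 0.06 (-0.17 to 0.29). Star lay between 45.8 and 137 CPM in NZO/HlLtJ on 10% fat alone, and its difference turned to 0.16 with the run of ID numbers as a term and to 0.46 in the first run. Insl3 and Hsd3b1 were highest within their group in NZO/HlLtJ 10% fat replicate 4, at 241 and 354 CPM, and without it the differences were 0.46 and 0.15. The exceptions by unadjusted p were Prlr, the prolactin receptor gene, with 0.34 (SE 0.13) and 0.02 in the first run of ID numbers, and Hsd3b6.

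Hsd3b6, chosen after its values were seen, encodes a 3-beta-hydroxysteroid dehydrogenase related to Hsd3b1. In NZO/HlLtJ it stood at 5.62, 6.01, 5.99 and 7.25 CPM on 10% fat and 3.59, 3.01, 4.68 and 3.51 CPM on 44% fat. C57BL/6J libraries had 100.2, 93.2, 97.8 and 58.6 CPM and at 90.8, 80.5, 52.6 and 93.7 CPM. The NZO/HlLtJ groups did not overlap, and the difference was -0.62 (SE 0.27). Reads can be shared between the 2 genes. Their sum was 308 ± 35.5 and 337 ± 10.8 CPM in NZO/HlLtJ and 145 ± 11.3 and 140 ± 18.6 CPM in C57BL/6J (SD, n = 4 per group), and the sums overlapped between diets in both strains.

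Of the other somatic markers, Trf, the transferrin gene of Sertoli cells, had 0.53 (SE 0.23), at 8.61, 8.81, 8.66 and 14.8 CPM on 10% fat and 10.6, 13.6, 17.1 and 13.3 CPM on 44% fat in NZO/HlLtJ. Its NZO/HlLtJ groups overlapped only through 10% fat replicate 4. Cd163, a scavenger receptor gene of resident macrophages, had 0.71 (SE 0.24), at 2.01 to 3.47 and 2.51 to 4.35 CPM in NZO/HlLtJ and 2.205 to 3.24 and 2.09 to 2.25 CPM in C57BL/6J. Summed macrophage markers were at 328 ± 12.6 and 340 ± 9.12 CPM in NZO/HlLtJ and 326 ± 11.3 and 321 ± 9.14 CPM in C57BL/6J, with overlapping diet groups. Without the 3 libraries that stand apart, 5 of 14 macrophage markers in place of 1 had an unadjusted p below 0.05, and the median was 0.32. Over all genes tested, 1040 of 22873 had such a p in that setting. The myoid median was 0.02 without the 3 libraries. Actg2, a smooth muscle actin gene, had -0.12 (SE 0.07) and the angiopoietin receptor gene Tek at 0.32 (SE 0.15).

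Genes of connective tissue and immunity had some of the larger medians. Of 22 collagen and extracellular matrix genes 18 had a positive difference, with a median of 0.13. Dcn, which encodes the collagen-binding proteoglycan decorin, was at 38.1, 43.3, 42.6 and 49.2 CPM on 10% fat and 42.6, 53.2, 54.8 and 54.0 CPM on 44% fat in NZO/HlLtJ. C57BL/6J libraries had 34.6, 32.0, 28.04 and 34.5 CPM and at 28.3, 30.0, 26.6 and 28.4 CPM. The groups overlapped in both strains, through NZO/HlLtJ 44% fat replicate 1 and through C57BL/6J 10% fat replicate 3, and the difference was 0.43 (SE 0.13, unadjusted p = 0.00239). Col1a2 and Col3a1, of the fibrillar collagens, had 0.33 (SE 0.19) and 0.44 (SE 0.27).

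Antigen presentation genes had a median of 0.22, with 17 of 21 positive. The class II genes led, with H2-Ab1 at 0.86 (SE 0.42), H2-Eb1 at 0.75 and the invariant chain gene Cd74 at 0.64. H2-Ab1 was at 1.16, 2.49, 1.54 and 2.41 CPM on 10% fat and 3.22, 6.47, 2.22 and 1.56 CPM on 44% fat in NZO/HlLtJ, with overlapping groups and its highest value in 44% fat replicate 2. Without that library the difference of H2-Ab1 was 0.31 and the median of the list 0.06, and in the first run of ID numbers they were 2.17 and 0.83, so 1 library decides this value. Of 24 interferon response genes 12 were positive (median 0.03). Bst2 and Mx1 had 0.65 and 0.59 with unadjusted p below 0.05, and the antiviral gene Mx2 had -0.68 (SE 0.26), so members of the list differed in sign. Il1b had -0.73 (SE 0.29) among 11 cytokine and acute phase genes with a median of 0.12. The 8 lymphocyte markers tested had a median of 0.07.

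Medians of the metabolic lists lay between -0.04 and 0.07. Cholesterol synthesis had a median of 0.01 over 23 genes, and 0.15 in the first run of ID numbers, with Stard4, a cholesterol carrier, at 0.27 (SE 0.14). Fatty acid synthesis had 0.05 over 14, with Acly, which makes cytosolic acetyl-CoA, at 0.16 (SE 0.10). Fatty acid oxidation and PPARA targets had 0.03 over 27, with the dehydrogenase gene Acadm at 0.24 (SE 0.09) and Pdk4, which restrains glucose oxidation, at 0.60 (SE 0.28), both with unadjusted p below 0.05. Acadm was at 26.5 to 31.8 and 29.7 to 31.3 CPM in NZO/HlLtJ and at 17.9 to 19.6 and 15.3 to 19.2 CPM in C57BL/6J, and its groups overlapped in both strains. It had 0.08 in the first run of ID numbers.

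Insulin, IGF and mTOR signalling had a median of 0.07, with 16 of 24 positive and Igf1r at 0.21 (SE 0.12) but -0.11 in the first run of ID numbers. In hypoxia and glycolysis (median 0.03 over 17), the kinase gene Pgk1 had 0.52 (SE 0.20) and the hexokinase gene Hk2 0.19 (SE 0.08). Pgk1 was at 8.70, 16.04, 7.94 and 8.21 CPM on 10% fat and 13.2, 10.6, 14.8 and 11.7 CPM on 44% fat in NZO/HlLtJ, and at 15.8 to 17.1 and 11.7 to 15.03 CPM in C57BL/6J, where the groups did not overlap. Without NZO/HlLtJ 10% fat replicate 2, its high library, the difference was 0.81 with an adjusted p of 0.0380 by edgeR's test, and in the first run of ID numbers it was 0.07. Genes of nuclear oxidative phosphorylation had a median of -0.02, with 21 of 25 negative, and 0.19 in the first run. Without the 3 libraries that stand apart 3 of 25 were negative, and without C57BL/6J 10% fat replicate 4 alone 12 were, so the sign of this list rests on those libraries. Cox6b2, the testis form of a cytochrome oxidase subunit, had -0.26 (SE 0.10) but 0.08 in the first run. Mitochondrially encoded genes had a median of -0.04, with mt-Co3 at -0.11 (SE 0.09).

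Stress lists had medians from -0.04 to 0.10. The median was -0.02 for the unfolded protein response, with the chaperone gene Calr at -0.10 (SE 0.05), 0.01 for heat shock genes, with Hspa2 at -0.11 (SE 0.06), and -0.04 for antioxidant genes. Gsr, glutathione reductase, was an exception in the last, at 22.6 to 23.7 and 24.2 to 29.1 CPM in NZO/HlLtJ and 17.8 to 20.2 and 16.5 to 18.5 CPM in C57BL/6J. Its NZO/HlLtJ groups did not overlap, its C57BL/6J groups did, and the difference was 0.29 (SE 0.09, unadjusted p = 0.00267). Of 15 p53 targets 12 were positive (median 0.10), with Cdkn1a, a cell cycle inhibitor, at 0.29 (SE 0.14) and Eda2r at 1.68 (SE 0.58) and 0.201 to 1.54 CPM. Clock genes had a median of -0.00, with Npas2 at 0.34 (SE 0.22), and ribosomal protein genes -0.03, or 0.24 in the first run, with Rpl11 at -0.11 (SE 0.07). Immediate early genes, which react to tissue handling, had a median of -0.01, with Zfp36 at 0.36 (SE 0.19) but -0.20 in the first run. Nnt, in which C57BL/6J is known to carry a deletion, had 0.02 (95% interval -0.12 to 0.16).

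Summed markers of tissues that can adhere to the testis did not part the diets in either strain. Whether their signal came from such tissue was not tested. Summed adipose markers were at 20.1 ± 1.93 and 19.4 ± 4.25 CPM in NZO/HlLtJ and 20.3 ± 4.12 and 21.5 ± 6.91 CPM in C57BL/6J (SD, n = 4 per group, 10% then 44% fat). Their median difference was -0.25 over 10 genes, and 0.04 without C57BL/6J 44% fat replicate 4, the library with the highest sum, at 31.1 CPM. Lep, the leptin gene, was the member with the smallest p, at -1.51 (SE 0.88). Epididymal markers were summed at 166 to 182 CPM in NZO/HlLtJ and 262 to 289 CPM in C57BL/6J with 8 of 20 listed genes tested, and 8 defining markers such as Lcn5, Lcn8 and Gpx5 were outside the count table. The median difference of the 8 tested was 0.19, with 6 positive. Rnase10 had 1.67 (SE 0.85) and at most 0.251 CPM in NZO/HlLtJ.

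Red blood cell genes had a median of -0.44 over 9 genes and a sum of 142 ± 18.4 and 127 ± 6.50 CPM in NZO/HlLtJ against 166 ± 18.1 and 168 ± 18.0 CPM in C57BL/6J. Without the 3 libraries that stand apart the median was -0.04, and in the first run of ID numbers 0.10. The globin gene Hba-a1 was at 0 in 7 of 8 C57BL/6J libraries and at 0.234 CPM in the eighth, so its difference has no interpretable size. Together with its copy Hba-a2 it was at 20.1 ± 7.16 and 14.5 ± 2.30 CPM in NZO/HlLtJ and at 21.6 ± 6.78 and 23.4 ± 8.12 CPM in C57BL/6J, and the diet groups overlapped in both strains. The part of blood in other results was not tested.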

How the data were processed

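Testis RNA was measured in 23 libraries. The authors deposited estimated counts per gene (28861 genes, 23.1% of values not whole at a tolerance of 1e-06), log2 values from their variance-stabilising transformation (7.67 to 19.3), and gene positions. The submitters' processing notes name GRCm38 and DESeq2. Not given in the sources used here are the aligner, the counter, its strand setting and annotation, and whether strain variants were considered. Every gene listed had counts in at least 12 libraries. Variants against the reference can lower NZO/HlLtJ counts, on both diets alike.

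Counts were rounded, filtered with filterByExpr (22873 genes kept), scaled by TMM and fitted with edgeR 4.0.16 in R 4.3.3, with 6 group means and all 23 libraries in 1 fit. The quasi-likelihood F test gave the strain difference of the diet effects, with Benjamini-Hochberg adjustment over all genes and a threshold of 0.05. Intervals are 95% and cover the fitted spread between libraries. CPM are TMM-scaled. The steps were tested on simulated data. Alternatives used DESeq2 1.42.0 and limma 3.58.1, other scaling and filters, other sets of libraries, ID runs, and a fold limit of 1.2.

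Named genes were the 10 per direction with the smallest p among genes with an official symbol and at least 1 CPM, the member with the smallest p of each of 35 lists, and Star, Cyp17a1, Insl3, Hsd3b1 and Nnt. Some of these are not reported here. Members and lists were chosen with earlier results of these data known. The overlap of Pakap with Palm2 and Akap2 and the likeness of the Fam205a copies and of Eno1b to Eno1 were read from GENCODE M21. Likeness was not measured for Mterf1a and Mterf1b, Hsd3b1 and Hsd3b6, or Hba-a1 and Hba-a2. Replicate pairs differed by a chi-square per degree of freedom of 3.32 to 14.7 (24 pairs). The table holds 0 spike-in rows.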

Additional observations from a re-analysis of the deposited data

Results flagged for a closer look

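In 12 of 227 gene and group pairs, each of 4 libraries, 1 library lay far from the other 3 by Dixon's test at its 95% critical value, where chance gives about 1 in 20. In C57BL/6J on 10% fat, replicate 4 was low for Acvrl1 at 2.94 CPM (others 3.70 to 3.79), and replicate 2 was low for Klhl32 at 8.17 CPM (others 9.19 to 9.39). In C57BL/6J on 44% fat, replicate 1 was low for Klhl32 at 9.54 CPM (others 9.92 to 10.0), replicate 3 was low for Pgk1 at 11.7 CPM (others 14.7 to 15.03), and replicate 2 was the only one above 0 for Hba-a1, at 0.234 CPM.

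In NZO/HlLtJ on 10% fat, replicate 4 was high for Hsd3b1 at 354 CPM (others 281 to 286), for Insl3 at 241 CPM (others 133 to 142) and for Trf at 14.8 CPM (others 8.61 to 8.81). Replicate 2 was high for Pgk1 at 16.04 CPM (others 7.94 to 8.70) and replicate 3 for Eno1b at 4.59 CPM (others 4.23 to 4.28). In NZO/HlLtJ on 44% fat, replicate 1 was low for Dcn at 42.6 CPM (others 53.2 to 54.8) and replicate 2 for Pakap at 7.61 CPM (others 10.1 to 10.5).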

How the results depend on the processing

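No paired analysis was possible because the titles carry no replicate numbers. The strain difference was called in 0 genes by edgeR, 2 by DESeq2 and 1 with the 16 libraries alone, all higher in NZO/HlLtJ. Leaving out each library in turn gave 0 to 1: ENSMUSG00000108533 without NZO/HlLtJ 10% fat replicate 1 or without C57BL/6J 44% fat replicate 4, and Pgk1 without NZO/HlLtJ 10% fat replicate 2. Diet in NZO/HlLtJ was called in 1 gene, in 7 by DESeq2, 2 with no filter, 0 with the 16 libraries alone, the run as a term or the fold limit of 1.2, 8 in the first run, without Slc38a2, and 4 without the 3 libraries that stand apart, and leaving out each library gave 0 to 5. Diet in C57BL/6J was called in 2 genes, in 0 with the 16 libraries alone, by voom weights, with the fold limit or without the 3 libraries, 3 by limma on the deposited log2 values, with Gm13232, and 1 in the first run, Zbed6, and leaving out each library gave 0 to 2.

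Of 1590 gene values over 27 planned settings, 1573 kept their sign and 17 in 10 genes did not. In the first run these were Catsper3 0.0654, Igf1r -0.109, Cox6b2 0.0818, mt-Co3 0.0757, Zfp36 -0.202, Hba-a1 0.0398, Rpl11 0.0884, Star 0.455 and Nnt -0.0772. Star was 0.164 with the run as a term and 0.147 with voom weights, and ran from -0.439 to 0.157 with each library left out. Nnt was -0.0131 with voom weights and -0.0215 without the 3 libraries, and ran from -0.0130 to 0.0440, as Hsd3b1 did from -0.0383 to 0.146. The ends below 0 came without C57BL/6J 10% fat replicate 4 for the last 2, and the end above 0 of Star without NZO/HlLtJ 10% fat replicate 3. Pakap was -0.0429 when counted with Palm2 and Akap2, a setting chosen after seeing the data. The causes were not tested, except that the last pools overlapping genes. Piwil4, Eda2r and Lep were outside the filter at 1 CPM. In the first run C57BL/6J has 1 library per diet, which is assumed to vary like the other groups. Few libraries and low counts limit genes under 10 CPM.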
